A study of Oryza sativa Indica Group with 10 samples.

Results

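Phytochromes are the red and far-red light receptors of plants, and COP1 is a ubiquitin ligase that removes light-signalling transcription factors in darkness. The rule took every probe set of the genes with the symbol or synonym PHYA, PHYB (LOC4332623), PHYC or COP1 in the platform annotation. It found 4 probe sets of 3 genes among the 57258 probe sets tested. PHYA (LOC4333930) had 2 probe sets, named here by the ends of their IDs, S1_at and A1_s_at. PHYB and PHYC (LOC4334135) had 1 each. These are 3 of the 17905 genes with a probe set of their own. No gene carried the name COP1 in the annotation used, so COP1 was not analysed here. All 3 phytochrome genes lie on chromosome 3 in the RefSeq gene table.

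Transcripts of light-grown rice seedlings (Indica cultivar Pusa Basmati 1) were measured on 10 one-colour Affymetrix arrays, with 2 biological replicates in each of 5 groups. The OE group over-expressed OsbZIP48, a bZIP transcription factor gene related to Arabidopsis HY5. Both knock-down groups carried an OsbZIP48 knock-down construct, and differed in that KD wild-type-like seedlings resembled wild type and KD lethal seedlings had a lethal phenotype. B4NU and pANDA seedlings carried an empty vector; here OE is set against B4NU, and both KD groups against pANDA, a vector built for RNA interference. The labels do not state this pairing of vector and transgene. The promoters and the number of independent lines are not given in the sources used here. The sample labels give the age as 10 days and the design text as 7 days. The tissue is labelled whole seedling, whereas the extraction text speaks of roots. No probe set is paired with OsbZIP48, so its own level was not checked.

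A phytochrome carries a bilin pigment made from heme, and light switches it between an inactive and an active form. In Arabidopsis the active form enters the nucleus, where it inhibits PIF transcription factors and the COP1 complex, and HY5 then accumulates. PHYA is known as the receptor of weak and far-red light, and its protein is unstable in light. PHYB is the main red-light receptor of green seedlings, and rice PHYC protein depends on PHYB for its stability.

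On technical grounds 2 arrays stood apart. The control probe sets for the 3' end of ubiquitin, GAPDH and cyclophilin transcripts were set against those for the 5' end and middle. This difference ranged from 0.91 to 1.85 (log2) on 8 arrays. It was lower on the remaining ones, at -0.16 for OE replicate 1 and 0.37 for KD lethal replicate 2. The replicates of OE correlated across probe sets at r = 0.950 and those of KD lethal at r = 0.981, against 0.993 to 0.998 in the other groups (probe sets are not independent replicates). The arrays formed separately normalized sets, B4NU with OE and pANDA with both KD groups. Within a set, pairs of arrays shared 16912 to 20090 identical values, and between the sets 0. A level in one set is therefore not strictly comparable with a level in the other. Between 65.7 and 68.9% of the values on an array lay within 0.5 (log2) of its lowest value of 2.44, and no phytochrome value did. Outside KD lethal, no root or shoot marker gene named below lay within 0.5 of the lowest value on both arrays of a group. In KD lethal this also held for the shoot markers. In KD lethal the mean log2 value of the 5 root marker genes with a probe set (LSI1, LSI2, NAS1, NAS2 and AMT1-2) was 3.05 and 3.15, against 8.18 and 8.25 in pANDA, and NAS1, NAS2 and AMT1-2 were within 0.5 of the lowest value. The mean of 4 shoot markers (RBCS, CAB2R, GLK1 and PETC) was 7.95 and 7.96 in KD lethal, against 10.64 and 10.69 in pANDA.

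PHYB, the main red-light receptor gene of green seedlings, was highest in KD lethal. Its log2 values there were 7.44 and 7.65. The pANDA arrays read 5.38 and 5.41 and the KD wild-type-like arrays 6.49 and 6.08, so the 3 groups of this set did not overlap and KD wild-type-like lay in the middle. In the other set, the B4NU arrays read 6.44 and 6.19 and the OE arrays 6.20 and 5.60. The KD lethal arrays were thus above all other arrays of the series, and the lowest array of all was a pANDA array. Ordered by group mean, PHYB ran from KD lethal (7.55 ± 0.15, SD, n = 2) through B4NU (6.31 ± 0.18), KD wild-type-like (6.28 ± 0.29) and OE (5.90 ± 0.43) to pANDA (5.39 ± 0.01). Neighbours in this order overlapped from B4NU to KD wild-type-like and from KD wild-type-like to OE.

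PHYA, the gene of the far-red receptor, showed a like pattern through S1_at. The KD lethal arrays read 6.93 and 7.22, the KD wild-type-like arrays 6.14 and 6.16 and the pANDA arrays 5.15 and 5.43. Here too the arrays of the 3 groups did not overlap. B4NU read 5.62 and 6.03 and OE 5.92 and 6.03, which overlapped with each other. The group means ran from KD lethal (7.08 ± 0.21, SD, n = 2) through KD wild-type-like (6.15 ± 0.01), OE (5.98 ± 0.08) and B4NU (5.83 ± 0.29) to pANDA (5.29 ± 0.19).

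The further PHYA probe set, A1_s_at, was less regular. Its name ends in _s_at, which on these arrays marks probes shared by several transcripts. KD lethal read 8.62 and 7.83, KD wild-type-like 7.64 and 8.15, and pANDA 7.04 and 6.82. Both KD groups lay above pANDA but overlapped with each other. B4NU read 7.12 and 7.01, whereas the OE replicates were 5.41 and 7.45, the widest gap between replicates of any phytochrome probe set. The lower of these is OE replicate 1, the array with the lowest 3' minus 5' and middle control signal. The group means were 8.22 ± 0.56 in KD lethal, 7.90 ± 0.36 in KD wild-type-like, 7.07 ± 0.08 in B4NU, 6.93 ± 0.16 in pANDA and 6.43 ± 1.45 in OE (SD, n = 2).

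PHYC, the gene whose product is stabilised by PHYB, had a wide spread between replicates in OE and KD lethal and a narrow one in the other groups. OE read 6.73 and 5.43 and KD lethal 5.64 and 6.41. B4NU read 5.69 and 5.50, KD wild-type-like 5.37 and 5.40, and pANDA 5.11 and 4.97. The highest values of the series were OE replicate 1 and KD lethal replicate 2. These arrays also had the lowest 3' minus 5' and middle control signal, whose part in the PHYC values was not tested. The group means were 6.08 ± 0.92 in OE, 6.02 ± 0.55 in KD lethal, 5.59 ± 0.14 in B4NU, 5.38 ± 0.03 in KD wild-type-like and 5.04 ± 0.10 in pANDA (SD, n = 2). From OE to KD lethal and from KD lethal to B4NU neighbours overlapped.

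**Figure D1:**
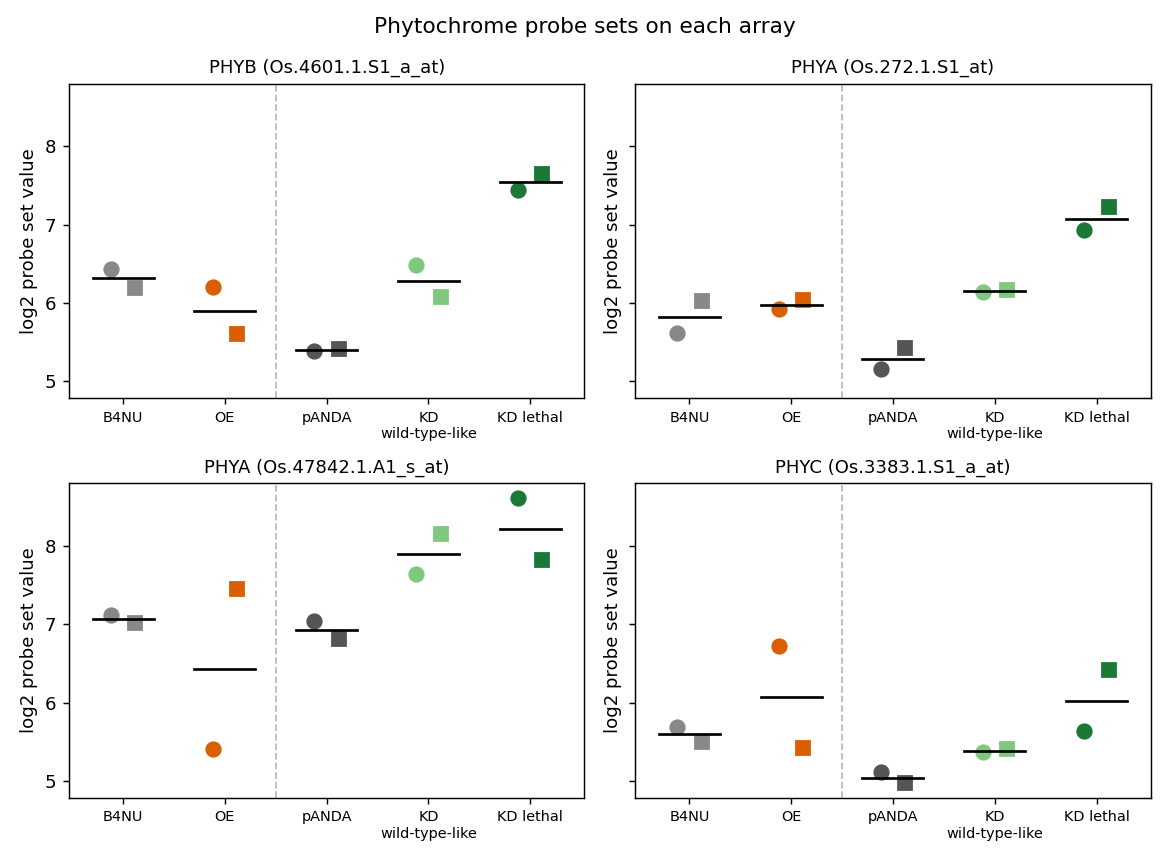
Log2 probe set value (vertical axis) of the 4 phytochrome probe sets on each array, by group; circles are replicate 1, squares replicate 2, black lines group means, and the dashed line parts the separately normalized sets. PHYB and PHYA (S1_at) step up from pANDA through KD wild-type-like to KD lethal, while the OE replicates of PHYA (A1_s_at) and PHYC lie far apart.

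Of the 4 probe sets, 3 had the order pANDA, KD wild-type-like, KD lethal from low to high with no overlap between the arrays of these groups. Of all probe sets tested, 3.75% had this order, and 10.9% of the 16323 detected ones, meaning those whose mean lay at least 1 (log2) above the lowest value. This order was chosen for description after the values had been seen. Its groups lie in 1 set, and KD wild-type-like enters both steps.

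The comparison of KD lethal with pANDA asks which transcripts differ when the knock-down is lethal. PHYB was higher by 2.15 ± 0.24 (log2, SE), a 4.44-fold difference (limma, adjusted p = 0.00448), with a 95% interval of 1.55 to 2.76. PHYA rose 3.45-fold by S1_at, a log2 difference of 1.79 ± 0.18 (adjusted p = 0.00295). The further PHYA probe set differed by 1.30 ± 0.69 and did not pass the test (adjusted p = 0.440). PHYC differed by 0.99 ± 0.46 and did not pass either (adjusted p = 0.352, interval -0.18 to 2.15). A higher transcript level in bulk tissue cannot be told apart from a larger share of the cells that hold the transcript. The root and shoot marker values given above fell in the same KD lethal arrays, and their part in these differences was not tested.

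Thus 2 of 4 phytochrome probe sets were called in KD lethal at limma's adjusted p under 0.05, both higher, and all 4 had a positive difference. Of all probe sets, 12.2% were called in this comparison and 6.83% were called as higher. Among the 16323 detected probe sets 32.7% were called, and 17.2% as higher, so calls were common in this comparison. The median difference of the 4 probe sets was 1.54 (log2), against 0.14 over the detected probe sets. PHYB lay above 95.8% of the detected probe sets, PHYA (S1_at) above 92.6%, the further PHYA probe set above 84.3% and PHYC above 76.9%.

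The PHYB call held under all 21 alternative settings (adjusted p up to 0.0333). These included each array left out in turn, the 6 arrays of the pANDA and KD set alone (adjusted p = 0.0135), and B4NU as the control (difference 1.23, adjusted p = 0.022). The PHYA call by S1_at held under 20 of 21 and was lost when the 4 arrays of KD lethal and pANDA were fitted alone (adjusted p = 0.077). Without OE replicate 1 and KD lethal replicate 2, the arrays that stood apart, all 4 probe sets were called, PHYC with a difference of 0.60 (adjusted p = 0.0474) and A1_s_at with 1.69 (adjusted p = 0.0288). KD lethal then held 1 array, assumed to vary like the other groups, and the PHYC difference was smaller than with both arrays (0.99).

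**Figure D2:**
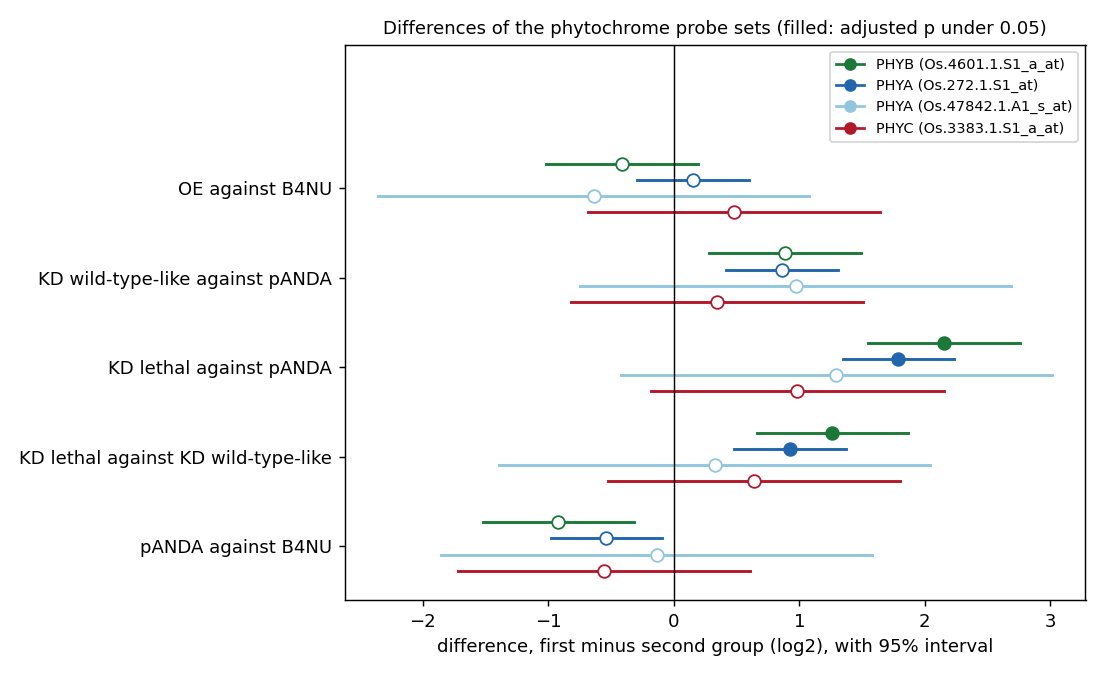
Log2 difference of each phytochrome probe set (horizontal axis, first minus second group) in 5 comparisons; lines are 95% intervals of the limma fit and filled points passed adjusted p under 0.05. PHYB and PHYA (S1_at) passed in KD lethal against pANDA (2.15 and 1.79) and against KD wild-type-like (1.26 and 0.93).

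Seedlings of the KD wild-type-like group ask whether the knock-down differs from its vector without the lethal phenotype. All 4 differences from pANDA were positive and none passed the test. PHYB differed by 0.89 ± 0.24 (log2, SE; limma adjusted p = 0.546), with a 95% interval of 0.28 to 1.49. The difference of PHYA was 0.86 ± 0.18 by S1_at (adjusted p = 0.302) and 0.97 ± 0.69 by A1_s_at (adjusted p = 0.981). For PHYC it was 0.35 ± 0.46 (adjusted p = 1). In this comparison 0.243% of all probe sets were called, and at an unadjusted p under 0.05 the count was 2 of the 4, PHYB and S1_at, a level that 4.92% of all and 9.5% of the detected probe sets reached. No alternative setting called any of them. Their median difference was 0.87, against -0.01 over the detected probe sets; PHYB lay above 98.5% of the detected probe sets and both PHYA probe sets above 98.4% or more. Each SE here rests on a spread shared by all groups. For PHYC the SD was 0.03 in KD wild-type-like and 0.10 in pANDA, against 0.92 in OE and 0.55 in KD lethal. Both KD groups are set against the same pANDA arrays. Set against B4NU instead, across the normalization sets, the PHYB difference was -0.03 and that of PHYC -0.21, so both turned sign, while PHYA (S1_at) gave 0.33 and A1_s_at 0.83.

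Between the KD phenotypes, PHYB was higher in KD lethal by 1.26 ± 0.24 (log2, SE; 2.4-fold, limma adjusted p = 0.0290). PHYA rose by 0.93 ± 0.18 through S1_at (1.90-fold, adjusted p = 0.0289). The differences of A1_s_at (0.33 ± 0.69) and PHYC (0.64 ± 0.46) did not pass (adjusted p = 1 and 0.552). With 1 array left out, A1_s_at ranged from -0.07, without KD lethal replicate 1, to 0.72, and PHYC from 0.25, without KD lethal replicate 2, to 1.03. In this comparison 11.2% of all probe sets and 30.5% of the detected ones were called. Both calls lay near the threshold. The PHYB call was lost without either B4NU array, either pANDA array, KD wild-type-like replicate 2 or either KD lethal array. The PHYA call was lost without either pANDA array, either KD wild-type-like array or KD lethal replicate 2.

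Over-expression was compared with B4NU to ask which transcripts differ when OsbZIP48 is raised. None of the 4 phytochrome probe sets passed, and 0 had an unadjusted p under 0.05, which 8.66% of all and 21.4% of the detected probe sets had. PHYB differed by -0.41 ± 0.24 (log2, SE; limma adjusted p = 0.644), with a 95% interval of -1.02 to 0.19. PHYA differed by 0.15 ± 0.18 through S1_at (adjusted p = 0.873, interval -0.29 to 0.60). A1_s_at differed by -0.64 ± 0.69 (adjusted p = 0.841) and PHYC by 0.48 ± 0.46 (adjusted p = 0.787). In OE 1.4% of all probe sets were called, and the median over the detected probe sets was -0.23. The last pair of differences rested on OE replicate 1. Without it, A1_s_at differed by 0.39 and PHYC by -0.17, so both turned sign. Against pANDA the sign of PHYB turned too (0.51, adjusted p = 0.256). No alternative setting called a phytochrome probe set in OE.

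**Figure D3:**
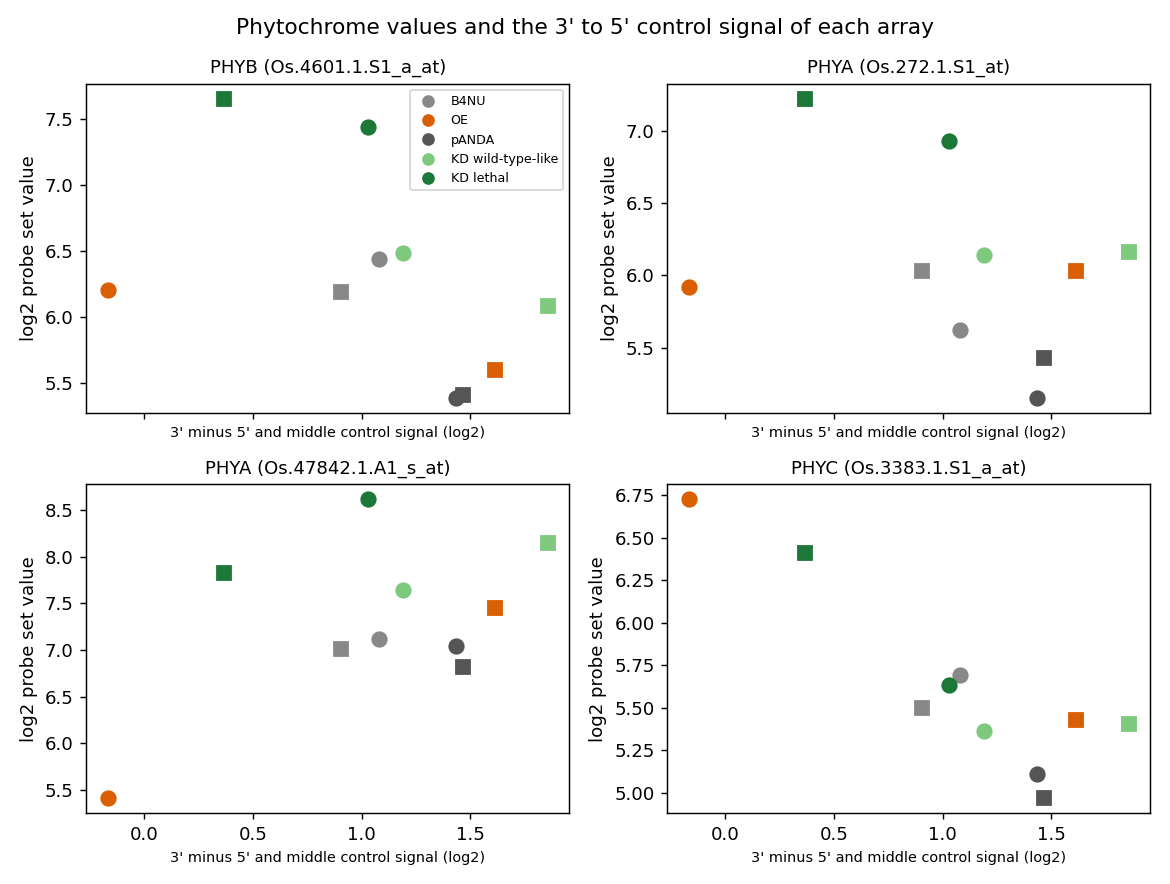
Log2 value of each phytochrome probe set (vertical axis) against the 3' minus 5' and middle control signal of the same array (horizontal axis, log2); colours are groups, circles replicate 1 and squares replicate 2. OE replicate 1 (-0.16) and KD lethal replicate 2 (0.37) have the lowest values on the horizontal axis and the highest PHYC values.

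Whether the effects of over-expression and lethal knock-down differ was tested by their difference, in which each group enters once. For PHYB the OE effect minus the KD lethal effect was -2.56 ± 0.34 (log2, SE; limma adjusted p = 0.0158). Both OE arrays lay below the B4NU mean by less than 1 and both KD lethal arrays lay above the pANDA mean by more than 2. The difference for PHYA (S1_at) was -1.64 ± 0.25 (adjusted p = 0.0239). The further PHYA probe set gave -1.93 ± 0.97 (adjusted p = 0.497) and PHYC -0.50 ± 0.66 (adjusted p = 0.774). Both depended on the OE arrays. Without OE replicate 1 A1_s_at gave -0.91 and PHYC -1.15, and without OE replicate 2 they gave -2.95, which was called (adjusted p = 0.0189), and 0.15. Of all probe sets 5.55% were called in this test. The PHYB call was lost without either B4NU array or either pANDA array, with adjusted p of 0.0517 to 0.0643. The PHYA call was lost without B4NU replicate 2, pANDA replicate 1, either KD wild-type-like array or KD lethal replicate 2, with adjusted p of 0.0502 to 0.068.

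The empty vectors were set side by side as the background of these comparisons. All 4 probe sets had lower means in pANDA than in B4NU. With each array centred on the median of the detected probe sets, A1_s_at was 0.09 higher in pANDA. PHYB differed by -0.92 ± 0.24 (log2, SE; limma adjusted p = 0.0836), PHYA by -0.54 ± 0.18 (adjusted p = 0.147) and -0.14 ± 0.69 (adjusted p = 0.996), and PHYC by -0.55 ± 0.46 (adjusted p = 0.610). None passed, while 9.8% of all probe sets were called and the median over the detected probe sets was -0.30. At an unadjusted p under 0.05 the count was 2 of 4, a level that 22.4% of all and 27.8% of the detected probe sets reached. Vector and normalization set cannot be told apart here. The PHYB difference was called when either OE array was left out (adjusted p = 0.0311).

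**Figure D4:**
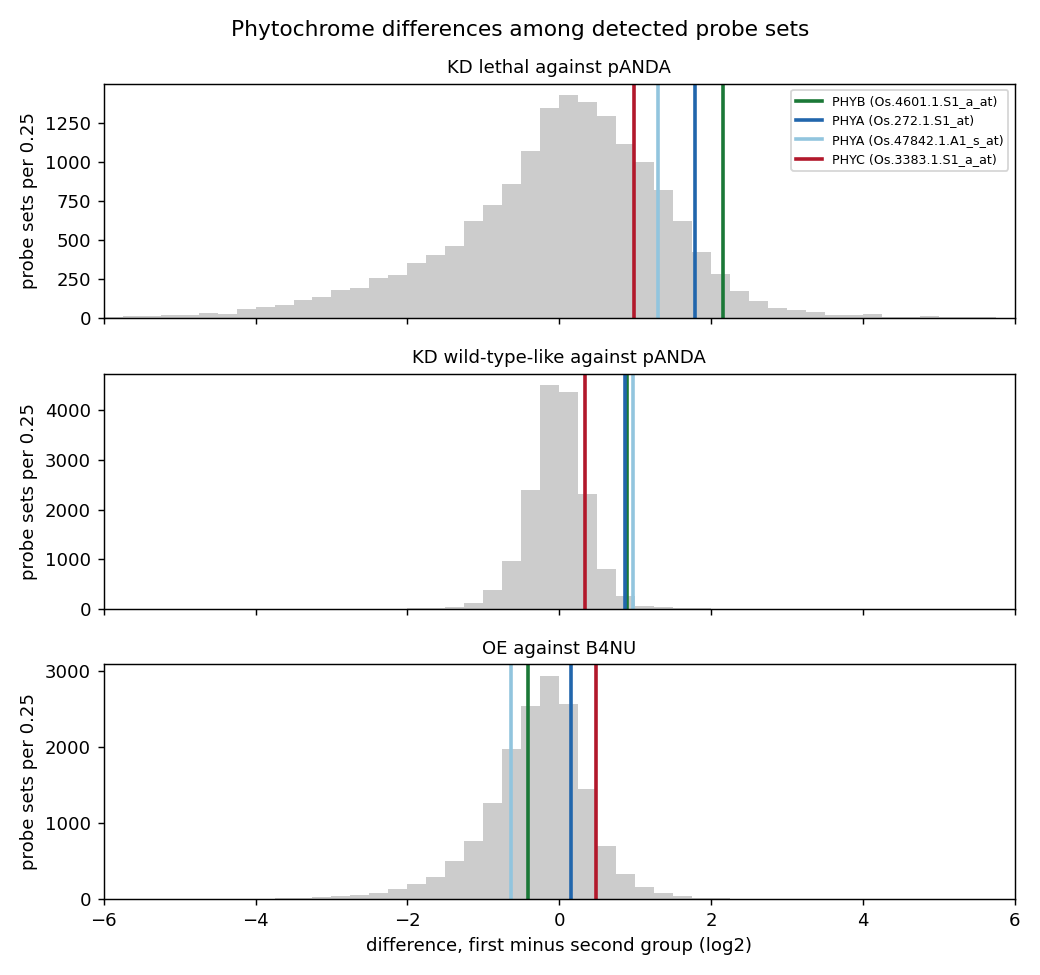
Number of detected probe sets per 0.25 of log2 difference (grey bars, 16323 in each panel; the horizontal axis ends at 6 on either side) in KD lethal, KD wild-type-like and OE against their vectors, with the phytochrome probe sets as coloured lines. All 4 lie right of 0 in both KD panels, and lie on both sides of 0 in OE.

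Over the 10 arrays, with each value taken relative to the mean of its set's vector control, PHYA (S1_at) and PHYB varied together (Pearson r = 0.93). The PHYA probe sets correlated with each other at r = 0.69, and PHYB with PHYC at r = 0.65. A1_s_at and PHYC did not vary together (r = -0.04). These values describe 10 arrays that share vector controls and normalization sets. Among 1827 detected probe sets of named genes that varied by more than 1 (log2), the pattern most like that of PHYB was that of the gene named ARF2 (LOC4326957, r = 0.99). Next came BGLU16 (LOC4336389, r = 0.97), a beta-glucosidase gene, and MKRN (LOC4340884, r = 0.96), which encodes a makorin-type zinc finger protein. They were picked for their likeness to PHYB over these same arrays, so their differences between groups follow that choice and are not given as results. For PHYA, taken by its probe set A1_s_at with the higher mean, the nearest were the glucose-6-phosphate isomerase gene GPI-B (r = 0.97), the thioredoxin gene OsTrx14 (r = 0.97) and OsRMR2 (r = 0.96). No such search was made for S1_at, the PHYA probe set called in KD lethal. PHYC was most like Anp32 (r = 0.98), the HSP90-type chaperone gene HSP81-3 (r = 0.97) and ASPR2 (r = 0.96). All these r values include the arrays that stood apart, whose part in them was not tested.

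The phytochromes were set beside other light signalling genes, of which 20 had a probe set (24 of 119 listed symbols and synonyms named distinct genes of the annotation). No gene of the PIF or COP1 and COP9 lists had one. Of the 20, 1 is a match by synonym to TGA2.2, a TGA-type bZIP gene that is not of the HY5 type. Without it, 0 of 19 rose in KD lethal, 7 fell and 12 did not pass, with a median of -0.81 (log2), against 0.14 over the detected probe sets. In this comparison 15.5% of the detected probe sets were called as lower. Apart from 7 light-regulated target genes, 0 of 12 rose and 2 fell. The genes named below that did not pass were chosen for their roles after their values had been seen.

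Of the other photoreceptors only 2 phototropin genes had a probe set, and cryptochromes, the other blue-light receptors, were not analysed here. PHOT1A (LOC4351240) and PHOT2 (LOC4335426), which encode phototropins, had differences of -1.93 ± 0.75 and -1.87 ± 0.51 (log2, SE) in KD lethal, and neither passed limma's test (adjusted p = 0.229 and 0.0857). HO2 (LOC4333033), a heme oxygenase-like gene, fell by 1.83 ± 0.42 (adjusted p = 0.0468). SE5 (LOC4341462) encodes the heme oxygenase of phytochrome pigment synthesis, whose loss removes functional phytochrome in rice. Its difference was 0.36 ± 0.24 in KD lethal (limma adjusted p = 0.530) and 0.76 ± 0.24 in KD wild-type-like (adjusted p = 0.709, unadjusted p = 0.0220). Neither passed, and in KD wild-type-like PHYB and PHYA (S1_at) did not pass either. The call for HO2 held under 10 of 21 alternative settings. TGA2.2, matched by the listed synonym BZIP1, rose by 1.61 ± 0.34 (adjusted p = 0.0375), and the call held under 8 of 21 settings.

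Of 7 clock genes, which time light responses, PRR37 (LOC4344399) fell by 0.81 ± 0.17 (log2, SE; limma adjusted p = 0.0357), a call that held under 8 of 21 settings, and 6 did not pass. A further PRR37 probe set gave -0.46 and did not pass (adjusted p = 0.788). LHY (LOC4344703), a morning clock gene, had the largest difference of these 7, 2.13 ± 0.59 (adjusted p = 0.0878). GI (LOC4325329) and PRR1 (LOC4330000), of the evening part of the clock, differed by 0.29 ± 0.31 and 0.18 ± 0.13 (adjusted p = 0.811 and 0.578). CPT1 (LOC4329720), which acts in phototropism, lay within 0.5 of the lowest value on all arrays.

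Among 7 light-regulated targets, most of them raised by phytochromes in seedlings, 5 fell in KD lethal and 0 rose. RBCS, PORB and GLK1 fell by 4.12 ± 0.09, 3.35 ± 0.14 and 1.35 ± 0.08 (log2, SE; limma adjusted p = 3.58e-05, 0.000210 and 0.000525). CAB2R and the chalcone synthase gene CHS fell too (adjusted p = 0.0240 and 0.0476), but held under only 12 and 11 of 21 settings. A further CAB2R probe set gave -2.91 (limma adjusted p = 0.000605). Of the further CHS probe sets, 3 lay within 0.5 of the lowest value and 1 gave -0.29 (adjusted p = 0.530). RBCS, CAB2R and GLK1 are also 3 of the 4 shoot markers whose lower level in KD lethal is given above, so they are not a separate observation. PORA, which is known to fall in light, differed by -3.24 ± 0.85 (adjusted p = 0.0759). Thus the receptor genes PHYB and PHYA (S1_at) stood higher, and the 5 called target genes lower, in the same arrays. In OE, RBCS and GLK1 fell by 0.70 and 0.53 (limma adjusted p = 0.0310 and 0.0485), calls that held under 6 and 3 of 20 settings. Further RBCS probe sets gave -0.87 and -0.72 in OE and did not pass (adjusted p = 0.0976 and 0.644). The remaining RBCS probe set lay within 0.5 of the lowest value. The other 17 of the 19 genes did not pass in OE, where 3.66% of the detected probe sets were called, 3.11% as lower. KD wild-type-like had 0 of 19 called, in a comparison that called 0.319% of the detected probe sets.

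**Figure D5:**
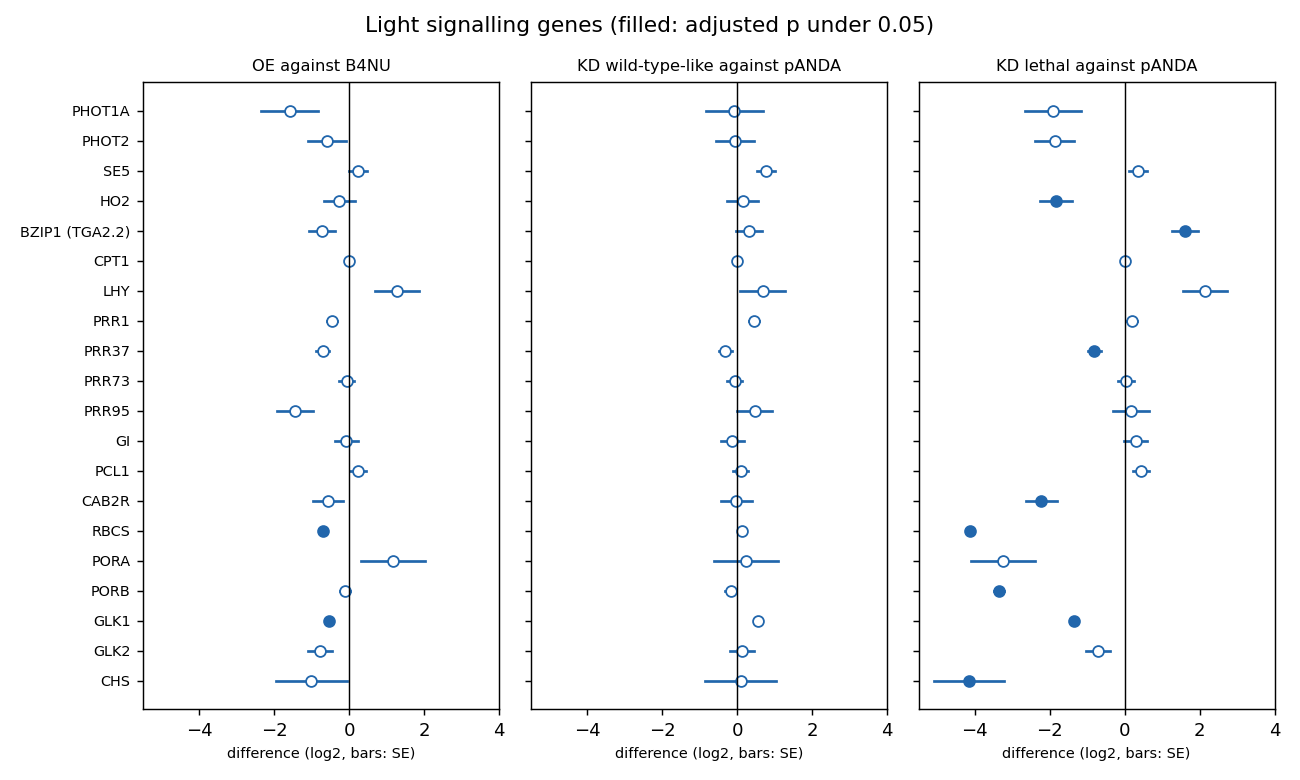
Log2 difference (horizontal axis, bars SE of the limma fit) of 20 listed genes, BZIP1 (TGA2.2) included, in OE, KD wild-type-like and KD lethal against their vectors; filled points passed adjusted p under 0.05. In KD lethal 7 genes are filled left of 0, and right of it only TGA2.2, which is not of the HY5 type, against 0 filled in KD wild-type-like.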

How the data were processed

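Values were read from 1 table that the authors deposited, as log2 per probe set; the log2 scale was inferred from their range. Per the submitters' processing notes the software was GCOS and Affymetrix Expression Console (version 1.4.1.46), and no source used here gives the normalization method. Per the labels' protocols, 500 ng of total RNA was labelled. Of 57381 probe sets, 123 controls were left out and 57258 tested, 64 reporter probe sets among them. Gene names came from the platform annotation and a RefSeq table (assembly ASM3414082v1, no coordinates used). One linear model with a coefficient per group was fitted to all 10 arrays (limma 3.58.1, R 4.3.3, lmFit and eBayes, 5 residual degrees of freedom, two-sided). P-values were adjusted by Benjamini-Hochberg over all tested probe sets and called under 0.05. All groups share 1 spread per probe set, and 2 arrays a group limit the precision. The model was tested on simulated data. Where a listed gene had several probe sets, the one with the highest mean was used.

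The members and gene lists were chosen with earlier results of these data known. The genes named are all phytochrome probe sets, genes of the light signalling list, and the 3 genes most like each phytochrome. Alternatives covered the arrays fitted, normalization, a dim filter, the vector and each array left out. Probe and gene sequences were not used here.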

Additional observations from a re-analysis of the deposited data

Results flagged for a closer look

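The effects of over-expression and lethal knock-down, each against its own vector, differed by limma's test of that difference in 2 phytochrome probe sets and 3 light-regulated target genes. Of all probe sets 5.55% were called in this test, and 14.4% of the detected ones, beside 3 of 19 light signalling genes. The OE effect minus the KD lethal effect was -2.56 (log2) for PHYB and -1.64 for PHYA (S1_at). For the target genes it was 3.43 for RBCS, 3.24 for PORB and 0.82 for GLK1. RBCS and PORB were called under all 18 alternative settings, PHYB under 12, GLK1 under 12 and PHYA under 9.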

How the results depend on the processing

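In KD lethal against pANDA, 2 phytochrome probe sets were called. Fitting these groups alone gave 1, and there were 4 without the arrays that stood apart, and 2 whichever array was left out. Between the KD groups it was 2, but 0 with only their arrays or with quantile normalization, 1 with array weights, within the pANDA and KD set (chosen after seeing the data) or without the arrays that stood apart, and 0 to 2 with 1 array left out. For the OE effect against the KD lethal effect it was 2, but 0 with quantile normalization or array weights, 1 with only the arrays compared or without those that stood apart, and 0 to 3 with 1 array left out. Between the vectors it was 0, but 1 with only their arrays, 2 with array weights or without the arrays that stood apart, and 0 to 1 with 1 array left out. It stayed 0 in OE and in KD wild-type-like under every setting. With only the arrays compared, fewer degrees of freedom remain; the other causes were not tested.

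Counts over all probe sets moved more: 7000 in KD lethal (2786 to 12596), 6408 between the KD groups (1191 to 12345), 139 in KD wild-type-like (20 to 5756), 802 in OE (17 to 12772), 5610 between the vectors (1788 to 19322) and 3180 for the difference of effects (1619 to 13919). Quantile normalization and centring moved the split of higher to lower calls from 187 to 615 into 363 to 645 and 1365 to 1580 in OE, from 1628 to 3982 into 2076 to 1768 and 1480 to 874 between the vectors, and from 1202 to 1978 into 1932 to 2002 and 3395 to 2830 for the difference of effects. The listed light signalling genes called (TGA2.2 included) in KD lethal ranged from 3 to 13 around 8, between the KD groups from 3 to 12 around 6, in OE from 0 to 9 around 2, for the difference of effects from 2 to 10 around 3, between the vectors from 0 to 7 around 0 and in KD wild-type-like from 0 to 1. In OE the phytochrome differences included values on both sides of 0 for all 4 probe sets.

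A replicate block left both phytochrome calls of KD lethal in place (adjusted p = 0.00926 for PHYB and 0.00251 for PHYA) and moved the count over all probe sets to 5742 there and from 802 to 423 in OE. The labels share only a number. The difference of replicate 1 from replicate 2 was compared between groups by correlation over the detected probe sets. Its r ran from -0.64 to 0.38 and was above 0 in 4 of 10 pairs of groups. Centring each array on the median of the detected probe sets moved PHYB in OE from -0.41 to -0.11. In KD lethal it moved PHYB to 2.08 and called the PHYA probe set A1_s_at (1.22, adjusted p = 0.0023). No phytochrome value lay within 0.5 (log2) of the lowest value, and the part of signal level in these differences was not tested.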
